A study of Mus musculus with 16 samples.

Results

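Ribosome biogenesis factors are the proteins that transcribe, modify, cut and fold ribosomal RNA and assemble it with ribosomal proteins. The 42 factors described here were chosen by gene symbol. They are Myc, 5 genes of RNA polymerase I and its partners, 4 nucleolar scaffold and chaperone genes, 8 genes of small nucleolar ribonucleoproteins (snoRNPs), 12 assembly factors of the small ribosomal subunit and 12 of the large subunit. All 42 were found, each as 1 Ensembl identifier among the 55359 in the count table, and all 42 passed the filter on low counts in each of the 5 comparisons made.

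The 8 donors of RNA were adult C57BL/6N males on a high fat diet, and each gave 1 duodenum and 1 ileum library. The labels place the sampling 5 weeks after tamoxifen in a statement that covers both genotypes, and do not say separately that control mice were given it. Mutant mice (M136, M167, M168 and M177) were Neurog3f/f; Villin-CreERT2, and control mice (C133, C134, C151 and C154) were Neurog3f/f, so the floxed alleles were common to both genotypes. CreERT2 is a tamoxifen-dependent recombinase, and the Villin promoter drives it in the intestinal epithelium, so the other cell types of a sample keep Neurog3. Neurog3 is the transcription factor that commits crypt progenitors to the enteroendocrine (hormone-producing) lineage. The control mice carried no recombinase, so that effects of the recombinase itself, of the loss of Neurog3 and, if control mice were not treated, of tamoxifen cannot be told apart.

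Ribosome assembly starts in the nucleolus, where RNA polymerase I copies the ribosomal DNA repeats into a long precursor. Box C/D snoRNPs methylate the precursor and box H/ACA snoRNPs convert chosen uridines to pseudouridine, while assembly factors cut it and fold it into the small and the large subunit. MYC is a transcription factor that drives many of these genes, and in the intestine ribosome production is a known feature of the dividing crypt cells.

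MYC binds the E-box CACGTG, so the promoters of the factors were read for it. RefSeq promoter windows on build GRCm38.p6, running from 250 bases before to 50 bases after each start site, were at hand for 36 of the 42 genes. The letters CACGTG, which read the same on both strands, stood in 10 of the 36 windows (27.8%), in 8.09% of the windows of all 27025 genes and in 10.9% of the windows of 12242 genes tested here. The variant E-box CACGCG, searched on both strands, stood in 11 of the 36 (30.6%), against 10.5% of all windows and 18.3% of tested genes. The ETS core CCGGAAG stood in 16 (44.4%), against 9.93% and 17.5%, and the palindromic NRF1 motif in 0, against 1.07% and 1.98%. A match is a run of letters and does not show that a protein binds there. The windows below come from some of the factors that hold CACGTG. By the main edgeR fits, Rrn3 and Ltv1 were called for a response that differed between tissues. Utp20, Mybbp1a and Wdr43 were called higher in mutant mice in both tissues, and Nop2 lower in the ileum than in the duodenum of control mice. The calls of Rrn3 and Ltv1 and the duodenum calls were lost under some alternatives. In edgeR with the mouse as a block, Mybbp1a (adjusted p = 0.0408) and Nop2 (0.0178) were also called for a response that differed between tissues. Noc4l and Nhp2, called for such a response in the main fit, held no CACGTG. Neither did Ncl, with the largest duodenum change, nor Polr1b, with the smallest duodenum p-value in edgeR. Capitals mark CACGTG, and each run is written 5′ to 3′ on the strand of the gene. Rrn3 held the hexamer at 2 places.
Rrn3 (chr16:13780472-13780501, plus strand): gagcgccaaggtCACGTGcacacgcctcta
Rrn3 (chr16:13780639-13780668, plus strand): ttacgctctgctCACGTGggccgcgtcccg
Ltv1 (chr10:13193092-13193121, minus strand): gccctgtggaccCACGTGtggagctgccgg
Utp20 (chr10:88826765-88826789, minus strand): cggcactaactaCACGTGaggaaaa
Mybbp1a (chr11:72441355-72441376, plus strand): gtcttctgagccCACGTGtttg
Wdr43 (chr17:71616220-71616249, plus strand): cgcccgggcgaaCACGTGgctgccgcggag
Nop2 (chr6:125131811-125131840, plus strand): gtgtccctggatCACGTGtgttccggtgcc

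Library depth was 40.9 to 67.2 M counts. Neurog3, the deleted gene, had 1 count summed over the 4 mutant duodenum libraries against 549 over the 4 control ones, and 1 count over the mutant ileum libraries against 201 over the control ones. Levels are given as CPM, a gene's read count relative to the effective size of its library, with TMM scaling. The 4 ileum markers followed the tissue labels, with summed levels of 801 to 2315 CPM in the ileum libraries and 45.6 to 92.8 CPM in the duodenum libraries. Some libraries stood apart. Exocrine pancreas genes, which mark acinar tissue that can be taken with the duodenum, held 15% of counts in M167 duodenum and 14.6% in M177 duodenum, against 0.00683% in C134 and 0.00704% in C154. Lymphoid follicle genes summed to 46.0 CPM in C134 duodenum, 79.2 CPM in C154 duodenum, 136.3 CPM in C134 ileum and 159 CPM in C154 ileum, while the other mice lay between 3.39 and 20.0 CPM.

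In the ileum, 39 of the 42 factors rose in mutant mice and 0 fell, by edgeR's quasi-likelihood F test at a Benjamini-Hochberg adjusted p under 0.05 over 18310 genes, of which 19.0% rose and 14.6% fell. The median log2 fold change, mutant over control, was 0.83 over the factors and -0.03 over all tested genes. For 37 of the 42 factors every mutant library lay above every control library, a pattern that 16.9% of tested genes showed. Leaving out any 1 mouse kept 38 or 39 factors above the threshold, and 38 of the 39 were called under all 17 alternative settings. In bulk tissue, more cells of a type and more RNA per cell cannot be told apart.

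In the duodenum, 13 of the 42 factors rose in mutant mice and 0 fell, where 3.44% of 17611 tested genes rose and 5.11% fell. All 42 log2 fold changes were positive, from 0.06 for Nop10 to 0.76 for Ncl, with a median of 0.43, against 0.02 over all tested genes. For 19 factors the 4 mutant libraries lay above the 4 control libraries, as they did for 7.81% of tested genes. Mouse M177 had the highest mutant value for 37 of the 42 factors and mouse M136 the lowest for 33. None of the 13 duodenum calls was kept under every alternative. With C134 and C154 left out, 0 factors passed in edgeR, 19 had an unadjusted p under 0.05, and 1.1% of all tested genes passed; the median of the factors was then 0.50. With the mean level of exocrine pancreas genes as a covariate, 0 factors passed in edgeR, 17 had an unadjusted p under 0.05, and 1.30% of genes passed, with a median of 0.43. Without M167 and M177, 4 factors and 2.43% of all tested genes passed. Leaving out single mice gave 3 factors without C133, 2 without C134, 4 without C151 and 23 without M136. Of all tested genes 3.02%, 3.03%, 2.65% and 12.0% passed, in this order.

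Of the 42 factors, 13 were called in both tissues, 26 in the ileum and not the duodenum, 0 in the duodenum and not the ileum, and 3 in neither. Over all tested genes, 33.6% were called in the ileum and 8.55% in the duodenum. In the duodenum 28 of the 42 had an unadjusted p under 0.05 in edgeR. A call in the ileum alone therefore does not show a difference between tissues, which is tested directly below.

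**Figure D1:**
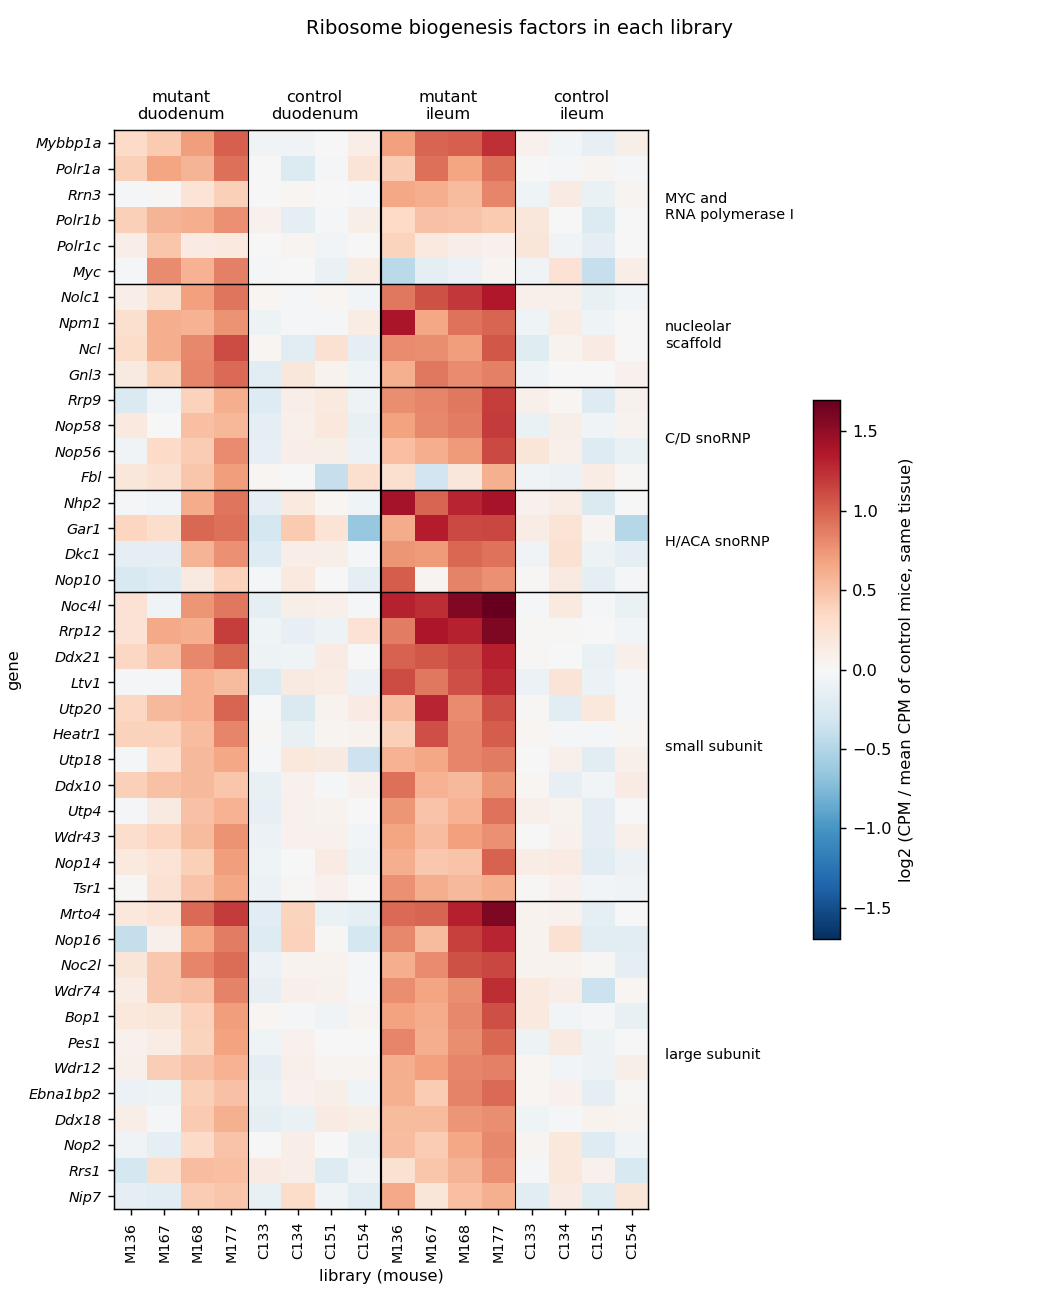
Level of each of the 42 factors (rows, grouped by role) in each of the 16 libraries (columns, by tissue and genotype), as the log2 ratio of its CPM to the mean CPM of the 4 control mice in the same tissue. Red is above and blue below that mean; the mutant ileum columns are red for the 39 factors called there, and Myc, Fbl and Polr1c are the rows not called.

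Markers of some cell types also differed between genotypes. The 13 markers of proliferating crypt cells summed to 1379, 1409, 1106 and 1401 CPM in the ileum of M136, M167, M168 and M177, against 725, 725, 838 and 721 CPM in that of C133, C134, C151 and C154, and 13 of the 13 rose. In the duodenum they summed to 884, 919.8, 1002 and 1228 CPM in the mutant mice and 776, 738, 846 and 784 CPM in the control mice, and 1 of the 13 rose. The 42 factors themselves summed to 1789.5, 1840.4, 1896 and 2169 CPM in mutant ileum against 1072, 1105, 1012 and 1074 CPM in control ileum. In the duodenum the sums were 1358, 1538, 1809 and 2109 CPM in mutant mice and 1147, 1188, 1245 and 1185 CPM in control mice. Neither sum overlapped between genotypes in either tissue. T cell markers fell in the ileum, 6 of 6 tested, and in the duodenum, 3 of 6. Plasma cell markers fell in the ileum, 4 of 5. Crypt base stem cell markers were higher for 0 of 7 genes in either tissue and lower for 1 of 7 in the ileum, and villus enterocyte markers were higher for 0 of 8 and lower for 2 of 8 in the ileum. The stem cell markers summed to 858 to 959 CPM in mutant and 1199 to 1533 CPM in control ileum, without overlap. In the duodenum they overlapped, at 1003 to 1316 CPM in mutant and 1145 to 1335 CPM in control mice. Among smooth muscle markers, 2 of 6 rose in the ileum and 1 of 6 in the duodenum, and among Paneth cell markers 1 of 5 rose and 1 fell in the ileum and 3 of 5 rose in the duodenum. Lymphoid follicle markers fell for 5 of 7 genes in the ileum. The 12 exocrine pancreas genes had a median log2 fold change of 3.05 in the duodenum and 1.64 in the ileum, and in both tissues 0 of them passed in edgeR and 0 had an unadjusted p under 0.05. The part of these cells in the difference of the factors was not tested.

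**Figure D2:**
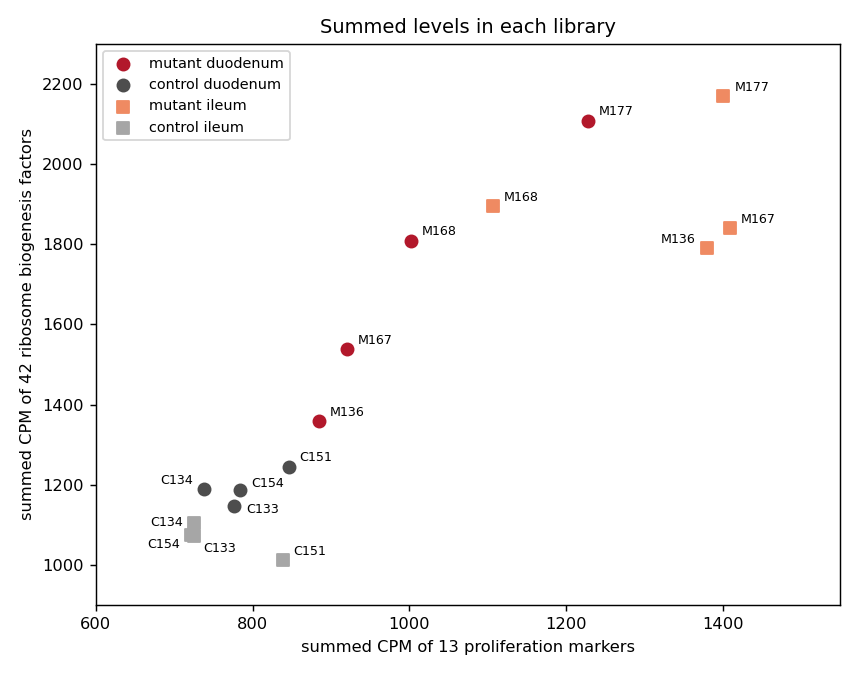
Summed CPM of the 42 ribosome biogenesis factors (vertical axis) against the summed CPM of 13 proliferation markers (horizontal axis), 1 point per library. Mutant libraries lie at 1358 to 2169 CPM on the vertical axis and control libraries at 1012 to 1245 CPM; M177 is highest in both tissues.

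Myc itself passed the main edgeR fit in neither tissue, and in the duodenum this depended on the method, the filter and the libraries used. In the duodenum it had 26.2, 46.8, 40.5 and 48.7 CPM in M136, M167, M168 and M177, against 26.4, 26.8, 24.7 and 29.3 CPM in C133, C134, C151 and C154. Mutant mouse M136 lay within the control range and the other 3 lay above it, and the log2 fold change of 0.61 (SE 0.17) missed the threshold, at an adjusted p of 0.051 in edgeR and 0.0739 in limma-voom, while the DESeq2 Wald test gave 0.0154. It also passed in edgeR with no low count filter (0.0297), 1 CPM in 4 libraries (0.0474), all 16 libraries in 1 fit (0.0298) and without M136 (0.00442). The other edgeR alternatives did not pass it, with adjusted p up to 0.32 under the pancreas covariate. In the ileum it had 23.5, 28.7, 30.1 and 33.3 CPM in the mutant mice, taken here and below in the same order, against 31.1, 38.4, 24.6 and 35.0 CPM in the control mice. These ranges overlapped, with a log2 fold change of -0.13 (SE 0.15, adjusted p = 0.53).

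The RNA polymerase I genes split. Polr1a, the largest subunit, had 42.5, 51.3, 47.8 and 61.5 CPM in mutant and 32.3, 27.4, 31.6 and 37.2 CPM in control duodenum, and 52.3, 74.3, 61.6 and 73.8 CPM in mutant against 38.8, 38.0, 39.9 and 38.1 CPM in control ileum. The genotypes did not overlap in either tissue, and the log2 fold changes were 0.67 (adjusted p = 0.0158) in the duodenum and 0.79 (adjusted p = 0.000551) in the ileum. Polr1b, the next largest subunit, had 28.6, 32.1, 33.0 and 36.8 CPM in mutant against 22.6, 19.3, 21.2 and 23.1 CPM in control duodenum, the smallest adjusted p of the 42 there (0.00875, log2 fold change 0.61 with SE 0.11). Its log2 fold change in the ileum was 0.47. Mybbp1a, a nucleolar protein that binds the polymerase and MYB, averaged 143 ± 31.4 CPM in mutant and 91.4 ± 5.02 CPM in control duodenum, and 182 ± 28.0 CPM in mutant and 91.3 ± 7.24 CPM in control ileum (SD, n = 4 each). Polr1c, a subunit that RNA polymerase I shares with RNA polymerase III, was called in neither tissue, with log2 fold changes of 0.24 in the duodenum and 0.22 in the ileum. Rrn3, the factor that brings the polymerase to the ribosomal DNA promoter, had 44.4, 46.0, 53.1 and 59.7 CPM in mutant and 45.2, 46.2, 45 and 44.2 CPM in control duodenum. These overlapped (log2 fold change 0.18, adjusted p = 0.258). In the ileum it had 65.1, 62.8, 59.7 and 73.3 CPM in mutant mice against 39.0, 45.2, 37.9 and 42.4 CPM in control mice, with a log2 fold change of 0.70 (SE 0.10, adjusted p = 0.000437).

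All 4 scaffold and chaperone genes rose in the ileum and 3 of 4 in the duodenum. Ncl encodes nucleolin, an abundant RNA-binding protein of the nucleolus. It had 166, 204, 235 and 287 CPM in mutant duodenum against 137, 118, 159 and 119.7 CPM in control duodenum, a log2 fold change of 0.76 (SE 0.17, adjusted p = 0.0244) and the largest of the 42 there. In the ileum the values were 143, 142, 133.5 and 169.8 CPM in mutant mice and 70.8, 84.9, 90.1 and 81.5 CPM in control mice. Npm1, the histone and ribosome chaperone nucleophosmin, had 183, 109.8, 132 and 138 CPM in mutant ileum against 65.9, 76.2, 66.0 and 69.9 CPM in control ileum, a log2 fold change of 1.05 (SE 0.14, adjusted p = 0.000325). In the duodenum its log2 fold change was 0.59 (adjusted p = 0.0152). Nolc1, which brings snoRNPs to the nucleolus, had 51.4, 58.5, 63.6 and 70.9 CPM in mutant and 29.5, 29.5, 25.3 and 26.7 CPM in control ileum (log2 fold change 1.17, adjusted p = 6.02e-05). In the duodenum it had 43.0, 47.9, 64.5 and 74.9 CPM in mutant mice against 40.7, 39.2, 40.5 and 38.3 CPM in control mice, so that the genotypes did not overlap but the threshold was missed in edgeR (log2 fold change 0.55, adjusted p = 0.0523) and passed in the DESeq2 Wald test (adjusted p = 0.0198). Gnl3, the GTP-binding protein nucleostemin, averaged 35.1 ± 3.04 CPM in mutant and 20.2 ± 0.807 CPM in control ileum.

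**Figure D3:**
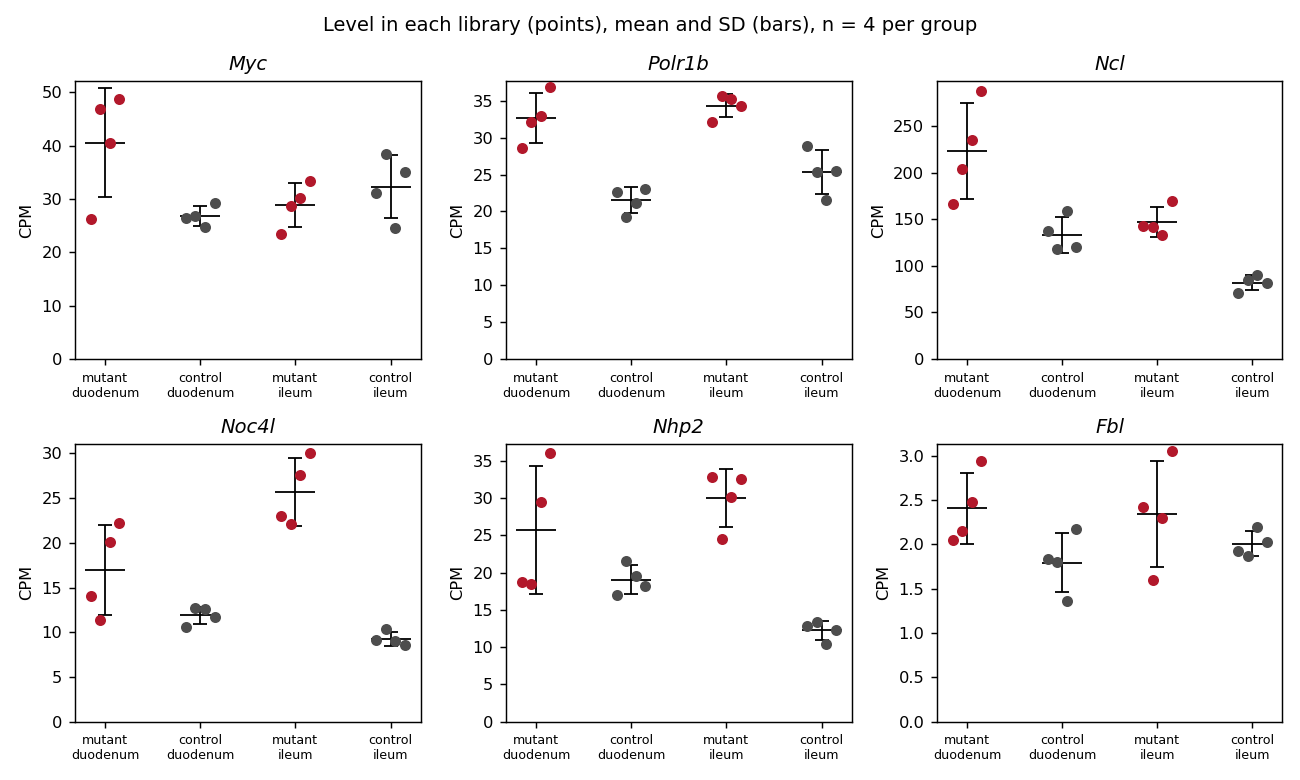
Level in CPM of Myc, Polr1b, Ncl, Noc4l, Nhp2 and Fbl in each library, mutant beside control within each tissue, each point a library, with the group mean and SD as lines (n = 4). In the ileum the mutant points of Polr1b, Ncl, Noc4l and Nhp2 lie above all control points, while those of Myc and Fbl overlap.

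Of the 4 box C/D genes, 3 rose in the ileum. In the duodenum 0 passed in edgeR, the DESeq2 Wald test or limma-voom, and 2 had an unadjusted p under 0.05 in edgeR. Fbl, the methyltransferase fibrillarin, was counted at a low level, 2.42, 1.60, 2.30 and 3.05 CPM in mutant and 1.93, 1.87, 2.2 and 2.03 CPM in control ileum, with overlap (log2 fold change 0.25, adjusted p = 0.385). Its duodenum values were 2.05, 2.15, 2.48 and 2.94 CPM in mutant and 1.84, 1.8, 1.36 and 2.17 CPM in control mice. The core proteins Nop56 and Nop58 had ileum log2 fold changes of 0.79 and 0.93. Rrp9, the protein particular to the snoRNP that guides the early cuts of the precursor, had 12.3, 12.6, 13.2 and 16 CPM in mutant against 7.58, 7.30, 6.10 and 7.46 CPM in control ileum (log2 fold change 0.96, adjusted p = 0.000299).

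All 4 box H/ACA genes rose in the ileum. In the duodenum 0 passed in edgeR, the DESeq2 Wald test or limma-voom, and 1 had an unadjusted p under 0.05 in edgeR. Nhp2, an RNA-binding core protein of these particles, had 32.8, 24.5, 30.1 and 32.6 CPM in mutant and 12.9, 13.4, 10.4 and 12.3 CPM in control ileum, a log2 fold change of 1.32 (SE 0.12, adjusted p = 5.95e-05). In the duodenum it had 18.7, 18.5, 29.5 and 36.0 CPM in mutant mice against 17, 21.5, 19.5 and 18.2 CPM in control mice, where M136 and M167 lay inside the control range. Nop10, the smallest protein of the particle, had 19.1, 9.66, 16.8 and 16.1 CPM in mutant and 9.51, 10.4, 8.41 and 9.14 CPM in control ileum. M167 lay among the control values, and the log2 fold change was 0.75 (adjusted p = 0.00948). In the duodenum Nop10 had the smallest log2 fold change of the 42, 0.06. Dkc1, the pseudouridine synthase dyskerin, rose by 0.88 on the log2 scale in the ileum. Gar1 had 0.498 to 2.19 CPM over all 16 libraries, so its ileum log2 fold change of 1.11 had a larger SE, 0.25.

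All 12 small subunit factors rose in the ileum and 6 of 12 in the duodenum. Noc4l, known in yeast as a nucleolar partner of Nop14 in small subunit assembly, had the largest ileum change. It had 23.0, 22.1, 27.6 and 30.0 CPM in mutant and 9.16, 10.4, 9.04 and 8.56 CPM in control ileum, 2.82-fold higher (log2 fold change 1.5, SE 0.12, adjusted p = 3.64e-05). In the duodenum it had 14.1, 11.4, 20.1 and 22.2 CPM in mutant mice against 10.6, 12.7, 12.6 and 11.7 CPM in control mice, with M167 inside the control range. Rrp12, known in yeast for the export of both subunits, had 21.5, 30.5, 29.1 and 35.5 CPM in mutant and 12.0, 12.0, 11.8 and 11.4 CPM in control ileum, 2.52-fold higher. The RNA helicase Ddx21, which also binds the polymerase I machinery, was at 146, 151.4, 159 and 183 CPM in mutant and 73.7, 73.4, 67.6 and 77.3 CPM in control ileum (log2 fold change 1.16, adjusted p = 3.64e-05), and it was 1.62-fold higher in mutant duodenum (adjusted p = 0.0151). Ltv1, which acts late, on the exported small subunit, had 33.4, 28.9, 33.1 and 37.5 CPM in mutant and 14.5, 18.1, 14.4 and 15.1 CPM in control ileum. In the duodenum its values overlapped, at 18.7, 18.6, 28.4 and 27.5 CPM in mutant mice and 16.1, 21.1, 20.6 and 17.6 CPM in control mice. The other duodenum calls were Utp20, Heatr1 and Wdr43, proteins of the early processome, the helicase Ddx10 and Rrp12. Ddx10 had 25.8, 27.5, 28.5 and 27.0 CPM in mutant against 17.8, 20.4, 19.1 and 20.4 CPM in control duodenum (log2 fold change 0.50, adjusted p = 0.0117).

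All 12 large subunit factors rose in the ileum, by 0.53 for Nip7 to 1.26 for Mrto4 on the log2 scale, and 1 of 12, Noc2l, in the duodenum. Mrto4, known in yeast to hold the place of a stalk protein during assembly, had 10.4, 10.6, 13.3 and 16 CPM in mutant and 5.56, 5.62, 4.82 and 5.37 CPM in control ileum (adjusted p = 0.000199). In the duodenum it had 6.89, 7.20, 11.9 and 13.9 CPM in mutant mice against 5.39, 7.91, 5.67 and 5.47 CPM in control mice. Nip7, needed for maturation of the large subunit RNA, overlapped in the ileum, at 15, 11, 13.7 and 14.6 CPM in mutant and 8.38, 10.6, 8.34 and 11 CPM in control mice (adjusted p = 0.0162). Pes1, Bop1 and Wdr12, which form 1 complex, had ileum log2 fold changes of 0.84, 0.85 and 0.78 and duodenum ones of 0.34, 0.40 and 0.42. Rrs1, an assembly factor with a log2 fold change of 0.57 in the ileum, is the 1 ileum call that some alternatives did not keep: without M177, without C134 and C154, and without M167 and M177.

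**Figure D4:**
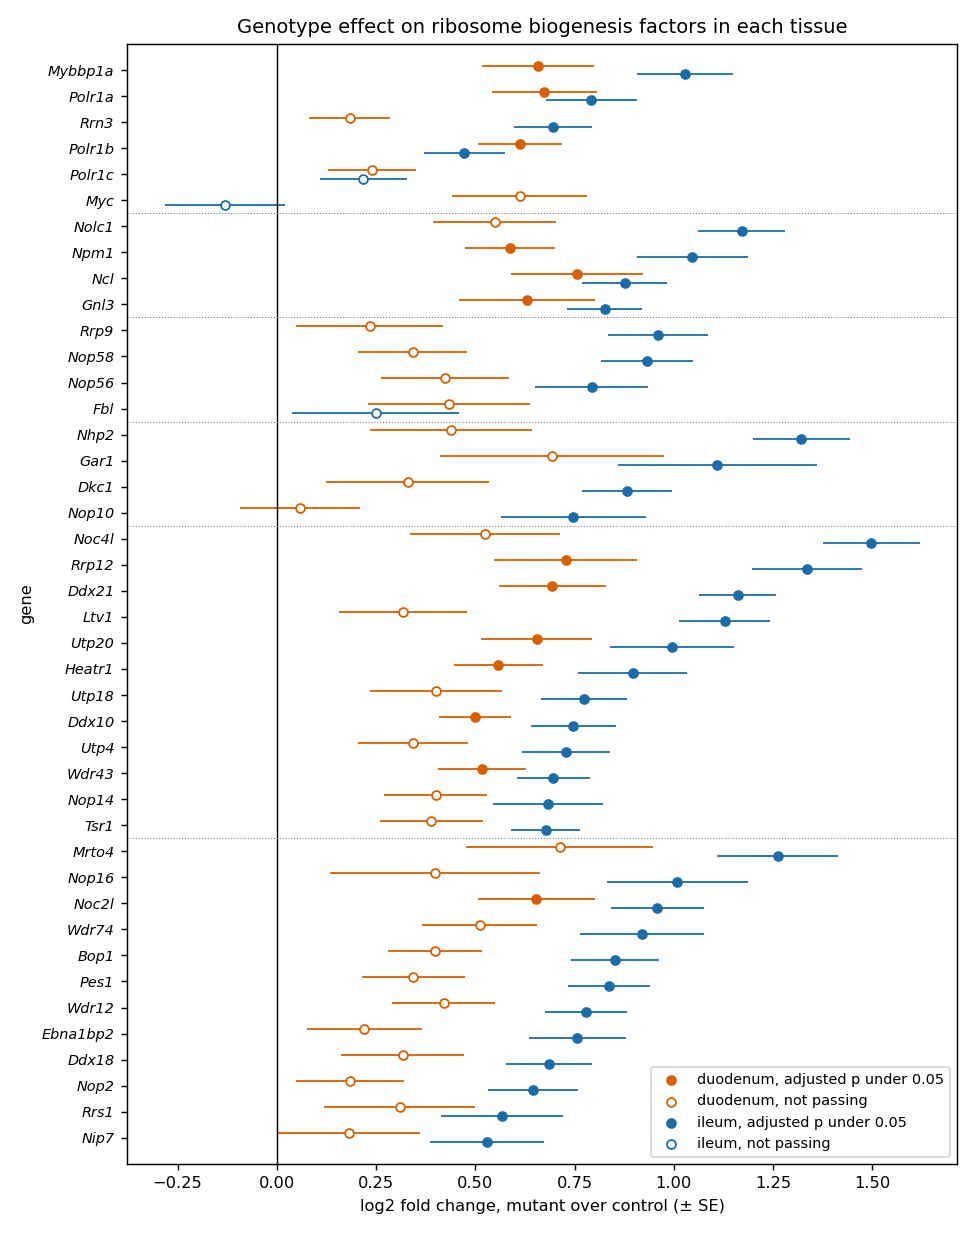
Log2 fold change, mutant over control, of each of the 42 factors in the duodenum and in the ileum, with bars of 1 SE to each side, grouped by role. Filled points had an adjusted p under 0.05, and the ileum point lies to the right of the duodenum point for 38 of the 42.

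Whether the genotype difference was unequal in the tissues was tested as the ileum log2 fold change minus the duodenum one, over all 16 libraries. The difference was positive for 38 of the 42 factors, with a median of 0.36, against -0.06 over all 19289 tested genes. It passed for 4 factors, all higher in the ileum, where 4.86% of all genes were called higher and 4.13% lower. These were Noc4l (0.95, SE 0.24, adjusted p = 0.0259), Ltv1 (0.79, adjusted p = 0.0298), Rrn3 (0.50, adjusted p = 0.0393) and Nhp2 (0.86, adjusted p = 0.0441). Myc had a difference of -0.76 (SE 0.24) that missed the threshold in edgeR (adjusted p = 0.0544; 0.0337 in the DESeq2 Wald test), and Fbl, Polr1b and Polr1c were the other 3 factors with a negative value. With the mouse as a block, since each mouse gave both tissues, 18 factors were called higher and 1, Myc, lower (-0.71, adjusted p = 0.00687), and 20.9% of all genes were called. The largest of the 18 was again Noc4l, 0.99 (SE 0.15, adjusted p = 0.00183). Without the block, 0 factors passed in edgeR when C133, C134, C151 or C154 was left out (16, 15, 12 and 14 had an unadjusted p under 0.05, in this order) or when C134 and C154 were (9 had). Without M136, none of the 4 passed and the 1 factor called was Myc, lower (-0.83, adjusted p = 0.0357 in edgeR). Without M177, 7 were called higher, and 5.40% of all genes were called. The fits without C133, C134, C151 or C154 called 1.71%, 2.87%, 0.943% and 2.95% of all genes.

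Between tissues, the control mice had 13 factors lower and 3 higher in the ileum than in the duodenum, where 30.3% of 18217 tested genes were lower and 28.0% higher. That share of lower factors, 31.0%, is close to that of all genes, and the median log2 fold change, ileum over duodenum, was -0.19, against 0.00 over all genes. Nop10 was lowest relative to the duodenum (-0.70, adjusted p = 0.000163), at 9.51, 10.4, 8.41 and 9.14 CPM in ileum and 15.2, 17.2, 15.3 and 13.7 CPM in duodenum. Among the called factors Ncl, Nhp2 and Nolc1 followed, with log2 fold changes of -0.69, -0.63 and -0.51. For 13 factors all 4 ileum libraries lay below all 4 duodenum libraries, and for 5 above, patterns that 29.0% and 24.7% of tested genes showed. Nop2, a methyltransferase of large subunit RNA, was lower by -0.40. Utp20 was higher in the ileum, at 46.9, 40.9, 52.3 and 45.7 CPM against 34.0, 28.7, 35.4 and 37.3 CPM in the duodenum (log2 fold change 0.47, adjusted p = 0.00232), as were Ddx10 (0.34) and Polr1a (0.28). With the mouse block the calls were 18 lower and 5 higher, while 61.8% of all tested genes were called. Without C151, 9 factors in all were called, and 46.2% of all tested genes. Both shares of all genes are above those of the factors.

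In mutant mice 5 factors were higher and 1 lower in the ileum than in the duodenum, where 12.9% of 17852 tested genes were higher and 18.2% lower. The median was 0.22 over the factors and -0.01 over all genes. The tissues did not overlap for 3 factors, all above in the ileum, against 13.3% of genes above and 18.9% below. Utp20 (0.79, adjusted p = 0.00783), Noc4l (0.62), Ddx10 (0.58), Ltv1 (0.53) and Rrn3 (0.38) were higher. Ncl was lower (-0.59, adjusted p = 0.018), with 143, 142, 133.5 and 169.8 CPM in ileum against 166, 204, 235 and 287 CPM in duodenum. Nop10, the factor with the largest fall in control mice, did not pass here (-0.03). With the mouse block 15 factors were higher and 2 lower, Ncl and Myc (-0.45, adjusted p = 0.0096). In that fit 38.9% of all tested genes were called, close to the share of the factors. In all, 2 factors were called without M167, 3 without M168, and 2 without M167 and M177. Of all tested genes, these fits called 24.8%, 22.4% and 23.5%, in this order. The ileum comparison of genotypes and the tissue comparison in control mice share the 4 control ileum libraries.

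Levels between genes were compared as CPM per kb, over the merged length of all annotated exons of a gene. This length can exceed that of the transcripts present (it is 10188 bases for Ncl), so ranks depend on the annotation. Before this scaling, Ncl averaged 223 CPM and Npm1 122 CPM in mutant duodenum. Per kb, Npm1 was the highest of the 42 in all 4 groups, with 52.8 CPM per kb in mutant ileum and 26.1 in control ileum. Mybbp1a, Ddx21 and Nhp2 took the next 3 places in mutant ileum (31.4, 30.9 and 26.2 CPM per kb), and Mybbp1a and Ddx21 differed by less than their spread. Fbl and Gar1 were counted lowest in every group, at 0.556 and 0.863 CPM per kb in mutant ileum. Fbl had 65 to 171 reads per library, and whether reads of it were lost in counting, to a similar sequence or an ambiguous place, was not tested, so its value may not be its expression. Myc ranked 16 in mutant ileum and 5 in control ileum. Exons of Ncl, Nop56, Nop58 and Gnl3 overlap snoRNA genes on the same strand, and those of 15 factors overlap genes on the opposite strand: Polr1a, Mybbp1a, Gnl3, Nop56, Rrp9, Dkc1, Nhp2, Nop14, Heatr1, Wdr43, Tsr1, Bop1, Pes1, Wdr12 and Noc2l. Reads of these partners may be part of their counts, since the strand setting of the counting is not given in the sources used here. Mrto4 has named pseudogenes, so its values are uncertain in the same way.

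The rest of the pathway was read from 9 further lists. Over all tested genes, 19.0% rose and 14.6% fell in the ileum, and 3.44% rose and 5.11% fell in the duodenum. Among 49 other small subunit processome genes, 41 rose and 0 fell in the ileum (median log2 fold change 0.61) and 10 rose in the duodenum (0.26). Pno1, an RNA-binding factor of the small subunit, led in the ileum with 1.17 (adjusted p = 3.64e-05), and Wdr36, another processome protein, averaged 78.6 ± 5.52 CPM in mutant and 42 ± 1.12 CPM in control ileum (SD, n = 4 each, here and in the averages that follow). Among 50 other large subunit genes, 41 rose and 0 fell in the ileum and 9 rose in the duodenum, Noc3l by 0.92 in the ileum and 0.66 in the duodenum. Of 14 exosome genes, which encode the RNase complex that trims the precursor, 13 rose in the ileum and 1, the catalytic subunit Dis3, in the duodenum. Of 16 other RNA polymerase I genes, 7 rose in the ileum, Polr1e by 1.08, and in the duodenum 0 passed in either direction in edgeR, 5 with an unadjusted p under 0.05. Cytosolic ribosomal proteins gave 31 of 79 higher in the ileum (median 0.39) and 13 of 77 in the duodenum (0.37). Many of these have near-identical copies in the genome, so single values such as Rps2, at 115.5 ± 13.4 CPM in mutant and 63.4 ± 3.59 CPM in control ileum, are uncertain. Of the snoRNA host genes 3 of 15 (20.0%) rose in the ileum, close to the share of all tested genes, and 1 of 14, Snhg3, in the duodenum.

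The 28 MYC targets that work outside the nucleolus gave 26 higher and 0 lower in the ileum, with a median of 0.91, and 4 higher in the duodenum, with 0.34. Odc1, the polyamine synthesis enzyme, averaged 64.3 ± 7.29 CPM in mutant and 26.8 ± 1.11 CPM in control ileum, and Cad, of pyrimidine synthesis, rose by 1.03 in the duodenum. Of the 11 genes of the MYC network itself, 0 rose and 4 fell in the ileum. Max, the partner of MYC, averaged 98.4 ± 19.6 CPM in mutant and 186 ± 18.1 CPM in control ileum (log2 fold change -0.89), and Mxd1, a MAX partner that opposes MYC, 359 ± 66.0 CPM in mutant and 645 ± 58.7 CPM in control ileum. In the duodenum 2 fell, Mxi1 and Mlx. The p53 targets, known to respond when ribosome assembly fails, gave 3 higher and 3 lower of 19 in the ileum. These shares, 15.8% each, are close to the 19.0% and 14.6% of all tested genes. In the duodenum 0 passed in either direction, and 4 had an unadjusted p under 0.05 in edgeR. In the ileum the called genes include the 3 that follow. The mitotic gene Gtse1 rose by 1.17, while Fas fell by 0.98 and Btg2 fell by 0.67.

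**Figure D5:**
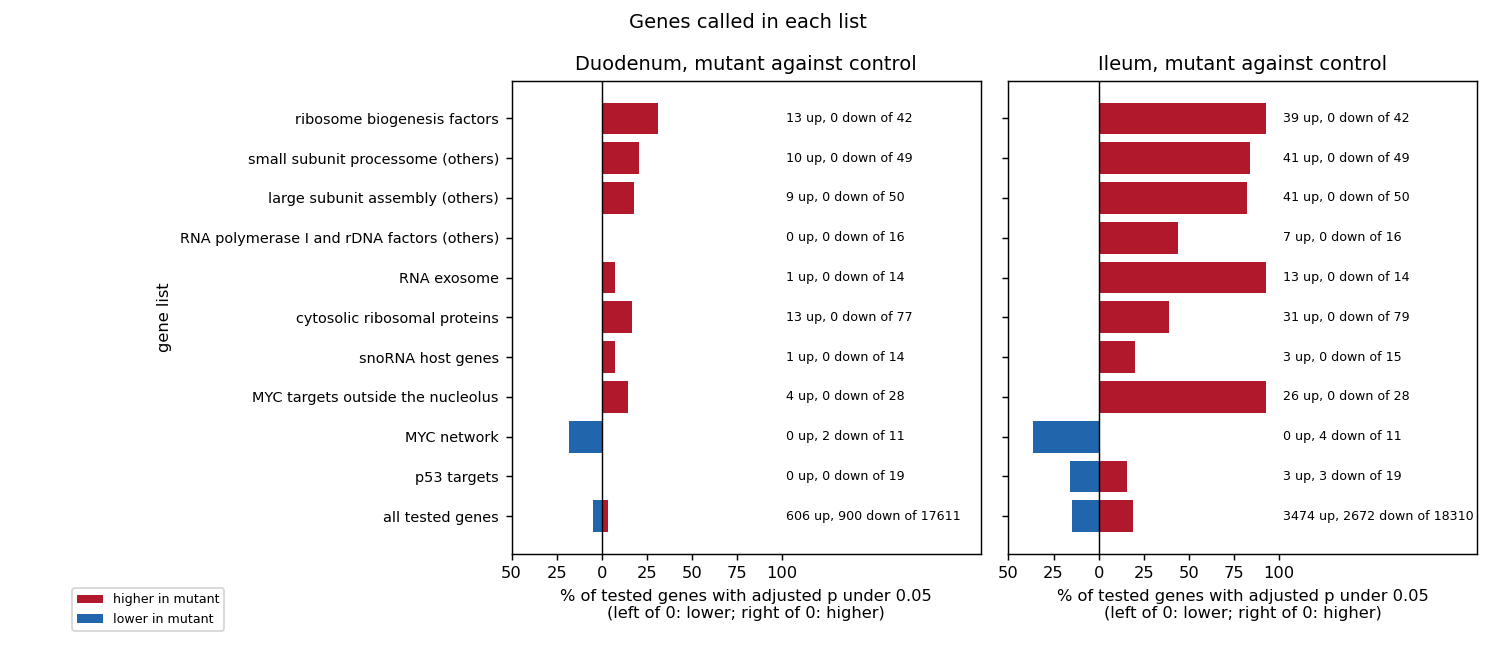
Share of the tested genes of each list that were called higher (right of 0) or lower (left of 0) in mutant than in control mice, in the duodenum and the ileum, with the counts beside the bars. The ribosome biogenesis factors reach 39 of 42 in the ileum and 13 of 42 in the duodenum; the last row gives all tested genes.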

How the data were processed

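Stranded total RNA libraries, depleted of ribosomal RNA, were made from the duodenum and ileum of 8 mice. The authors deposited whole-number read counts for each gene, which were taken unchanged. Per the submitters' processing notes, reads were handled with HTSeq 0.6.1p1, STAR 2.5.3a, Bowtie2 2.2.8 and cutadapt 1.10 on mm39. The annotation release, like the strand setting, is not given in the sources used here. Names and exon lengths came from GENCODE M21 on the older build GRCm38, which named 52083 of 55359 identifiers; the 3276 without a name held 1.02% of counts. Depth was 40.9 to 67.2 M counts, and the 4 replicates of a group are separate mice.

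Each tissue was fitted with edgeR 4.0.16 (R 4.3.3, limma 3.58.1): filterByExpr, TMM scaling (trimmed mean of M values), the robust quasi-likelihood F test, with Benjamini-Hochberg adjustment over all tested genes and a threshold of 0.05. The SE is the log2 fold change divided by the root of F. CPM values use scaling over all 16 libraries. The genotype by tissue comparison used all 16 libraries and the tissue comparisons the 8 of a genotype. The scripts were tested on simulated data with 200 changed genes. There the duodenum fit recovered 5.97% of 1.5-fold and 49.3% of 2-fold changes, and the ileum fit 16.4% and 55.2%. The genotype by tissue fit recovered 5.97% and 26.9%. False calls were 8.82%, 8.93% and 2.74% of calls, in this order. A factor that was not called may therefore still differ. The simulation changed far fewer genes than the 33.6% of 18310 called in the ileum data. Its recovery therefore need not be that of the 42 factors. The same mouse numbers stand in both tissues; residuals of a mouse's libraries correlated at 0.30 to 0.58, more than with any other mouse in all 8 mice, so the numbers pair the libraries.

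Alternatives were DESeq2 1.42.0 size factors in edgeR, its Wald test, limma-voom, no filter, 1 CPM in 4 libraries, mice left out, exocrine pancreas genes removed or as a covariate, all 16 libraries in 1 fit, and the mouse block. The 42 members and all lists were chosen with earlier results of these data known. Values per library are given for Myc, Ncl, Npm1, Fbl, Polr1a and Polr1b, for the 4 smallest p-values of each comparison and for the extremes of each role in the duodenum; of other lists, for up to 3 genes of smallest p.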

Additional observations from a re-analysis of the deposited data

Results flagged for a closer look

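Among all sets of 4 libraries (42 factors in 4 groups), there were 4 in which 1 library lay far from the other 3; chance flags about 1 in 20. All 4 were in the duodenum. Polr1c had 22.3 CPM in M167, while the nearest mutant library had 18 CPM. Rrp12 had 14.4 CPM in C154, with the next control library at 11.6 CPM. Mrto4 had 7.91 CPM in C134, with the next at 5.67 CPM. Wdr12 had 9.08 CPM in C133, below the nearest at 10.5 CPM.

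For 4 factors the genotype difference was called unequal in the tissues by the interaction test without the mouse block. Ileum minus duodenum was 0.95 for Noc4l, 0.86 for Nhp2, 0.79 for Ltv1 and 0.50 for Rrn3, on the log2 scale. Of all tested genes, 4.86% were called higher in the ileum by this test and 4.13% lower. None of the 4 passed in edgeR when any 1 control mouse was left out. With the mouse block, 18 factors were called higher and 1 lower, and 20.9% of all tested genes were called.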

How the results depend on the processing

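The 39 ileum calls stayed at 38 or 39 under all 17 alternatives, while the share of all tested genes called ran from 17.8% to 40.3%. The duodenum count of 13 became 20 with the DESeq2 Wald test and 20 with all 16 libraries in 1 fit, 4 without M167 and M177, 0 with the pancreas covariate, and 0 without C134 and C154; leaving out each mouse gave 2 to 23. The genotype by tissue count of 4 became 9 with the DESeq2 Wald test, 0 without C134 and C154 and 19 with the replicate block (mouse number). Over all genes the share was 8.99% in the main fit and 16.5%, 0.110% and 20.9% under these settings. With each mouse left out, 0 to 7 factors and 0.943% to 10.2% of all genes were called. Between tissues, the count of 6 in mutant mice became 12 with all 16 libraries in 1 fit, 2 without M167 and M177 and 17 with the mouse block. Over all genes the share was 31.1% in the main fit and 37.4%, 23.5% and 38.9% under these settings. With each mouse left out, 2 to 6 factors and 22.1% to 24.8% of all genes were called. The 16 in control mice became 23 with the block, while the share of all genes went from 58.3% to 61.8%. With each mouse left out, 9 to 14 factors and 46.2% to 54.5% of all genes were called there. The cause of these moves was not tested. Over all 42 factors and the 5 comparisons, 78 results were called; of their values under the alternatives, 1093 stayed called, 158 kept direction but no longer passed, and 0 changed sign. Of the values of results not called, 1856 kept direction and stayed so, 114 passed, and 54 changed sign without passing. Among factors described by library, the log2 fold changes that changed sign were these. Without C134 and C154, Myc was at 0.11 in the ileum and Rrp12 at 0.0687 between tissues of control mice, where Rrp12 was also at 0.0343 with 1 CPM in 4 libraries. Without M167 and M177, Nop10 was at -0.0261 in the duodenum. Between tissues of mutant mice, Nop10 was at 0.0001 with DESeq2 size factors and with its Wald test, 0.0043 with no filter, 0.0131 with pancreas genes removed and 0.283 without M167 and M177; under the same 5 settings Fbl was at 0.0035, 0.0034, 0.0084, 0.0171 and 0.0804. With each mouse left out, the range was -0.075 to 0.144 for Nop10 in the duodenum, -0.0575 to 0.0743 for Rrp12 in control mice and, in mutant mice, -0.230 to 0.0872 for Nop10, -0.104 to 0.0739 for Fbl, -0.0093 to 0.340 for Npm1 and -0.116 to 0.110 for Nip7. Leaving out 2 mice leaves 2 in a group. Fbl and Gar1 had the fewest reads, 0.498 to 3.05 CPM.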
